A study of Mus musculus with 6 samples.

Results

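The data described here are the transcript counts of 10 genes of bone morphogenetic protein (BMP) signaling, the secreted ligands Bmp2, Bmp3, Bmp4, Bmp5, Bmp6 and Bmp7, the protease Bmp1 and the antagonists Grem1, Nog and Chrdl1. They were taken by gene name from a count table of 57010 genes, and all 10 were found there. Bulk RNA was sequenced in 6 libraries, of which S13, S15 and S18 hold femur-derived and S16, S19 and S23 mandibular-derived monocytes. Both groups came from bone marrow of C57BL/6 (in the study's methods C57Bl/6J) mice 1 year old, with no drug treatment and no genetic change named, and the labels separate them by skeletal site. The study's methods name both male and female mice, the labels give no sex for a library, and sex did not enter the tests. The cells were enriched with a monocyte isolation kit that holds back other marrow cells on a magnetic column and keeps what flows through, so no marker of the monocytes themselves was used for selection. The comparison of mandible with femur asks how the 2 skeletal sites differ in the RNA of this cell fraction. The labels do not say which animal each library came from or whether animals were pooled, so p-values measure only the spread between these libraries, which may be technical.

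BMPs are secreted dimers of the TGF-beta superfamily that bind paired type I and type II receptor kinases, which phosphorylate SMAD1, SMAD5 and SMAD9 and so switch on genes such as Id1 and Msx1. Secreted antagonists bind the ligands in the matrix and keep them from their receptors, and both kinds of protein set the range of a BMP signal. In bone and teeth the family is known for driving mesenchymal cells toward osteoblasts and odontoblasts and for the exchange of signals between dental epithelium and mesenchyme. Bmp1 carries the family name but is a metalloproteinase that trims procollagens and cleaves the BMP inhibitor chordin.

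The libraries held 15718782 to 25371474 counts, and 18114 genes, among them all 10 of these, passed the filter on low counts. Expression is given as counts per 1000000 (CPM), scaled by edgeR's TMM factors, and where a gene had 0 counts, its level could be as high as that of 3 counts, 0.133 to 0.172 CPM, a limit that covers counting error only. Libraries S15 and S23 stood apart from the rest. Of the tested genes 31 were at 0 in S15 and 256 to 2037 in the other libraries, and Xist, the RNA that coats the inactive X chromosome, was at 1441 CPM in S23 and at most 0.553 CPM elsewhere, so the 1 library with this female transcript was in the mandible group. The 10 monocyte markers, among them Csf1r and Lyz2, were detected in all 6 libraries and summed to 6949.9 to 13320.1 CPM in femur and 6094 to 10559 CPM in mandible, with none of the 10 called. Markers of cells that are not monocytes also differed between the groups, and their values stand beside the results below.

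In GENCODE M21, an annotation of the mouse build GRCm38, the 10 genes lie on 7 chromosomes. Bmp3 lies at chr5:98854415-98884396 on the plus strand, Bmp7 at chr2:172868012-172940321 on the minus strand and Bmp1 at chr14:70474558-70520234 on the minus strand. Bmp4 lies at chr14:46383520-46390669 and Nog, with a single exon, at chr11:89300638-89302332, both on the minus strand. Bmp2 lies at chr2:133552159-133562885, Bmp5 at chr9:75775364-75900310 and Bmp6 at chr13:38345107-38500302, all on the plus strand. Grem1 lies at chr2:113746164-113758646 and Chrdl1 at chrX:143285674-143394262, both on the minus strand. Bmp6 shares 224 exonic bases with Txndc5 on the opposite strand, which had 2386 to 5011 counts per library, and since the use of the strand in counting is not given in the sources used here, reads of that stretch cannot be told apart. The other exonic overlaps, of Bmp5 with Gm26903 and of Bmp4 with Gm15217, involve genes with at most 1 count in any library.

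Promoter sequences from RefSeq (GRCm38.p6, 250 bases before to 50 after the start) matched 4 of the 10 genes, Bmp4, Bmp5, Bmp6 and Grem1, and not Bmp1, Bmp2, Bmp3, Bmp7, Nog and Chrdl1. The promoters of Bmp4, a ligand that was higher in mandible, and of Bmp5, a ligand whose difference did not pass the test, are shown side by side, and that of Grem1 because it holds the most GC boxes. Capitals mark the GC box GGGCGG on either strand and the CCAAT box, and each sequence is given in the direction of its gene.
Bmp4, chr14:46390620-46390919, minus strand: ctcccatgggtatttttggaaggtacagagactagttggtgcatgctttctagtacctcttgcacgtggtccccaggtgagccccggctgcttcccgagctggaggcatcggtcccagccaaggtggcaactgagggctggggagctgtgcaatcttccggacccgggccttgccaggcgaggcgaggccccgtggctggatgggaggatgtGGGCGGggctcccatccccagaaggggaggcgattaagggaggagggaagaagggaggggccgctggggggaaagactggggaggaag
Bmp5, chr9:75775115-75775414, plus strand: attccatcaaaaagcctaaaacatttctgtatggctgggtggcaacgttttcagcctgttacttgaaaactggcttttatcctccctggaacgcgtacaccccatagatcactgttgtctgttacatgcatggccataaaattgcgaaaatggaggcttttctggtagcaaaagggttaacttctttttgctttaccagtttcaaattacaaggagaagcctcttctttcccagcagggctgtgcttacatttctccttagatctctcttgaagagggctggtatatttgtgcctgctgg
Grem1, chr2:113758599-113758898, minus strand: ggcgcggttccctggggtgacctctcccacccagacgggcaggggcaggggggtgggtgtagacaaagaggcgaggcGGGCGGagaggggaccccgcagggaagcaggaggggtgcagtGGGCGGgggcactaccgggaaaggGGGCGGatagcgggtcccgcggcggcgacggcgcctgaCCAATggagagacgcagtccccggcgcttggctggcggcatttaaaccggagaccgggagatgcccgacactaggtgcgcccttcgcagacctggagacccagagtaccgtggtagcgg
The Bmp4 promoter was 64.0% G and C and held 1 GC box, which begins at position -38 with the first base after the 250 upstream bases counted as 0. The Bmp5 promoter was 43.3% G and C, below the median of 53.0% over 32534 mouse promoters of that length, and held none of the motifs searched. Grem1, at 70.7%, held 3 GC boxes at -173, -131 and -107, a CCAAT box at -69 and a GGCGCC, a motif bound by SMAD1 and SMAD5, at -78. The search covered both strands for the GC box GGGCGG, the CCAAT box, the SMAD motif GGCGCC, the TATA box TATAAA, the E-box CANNTG and the RUNX motif AACCACA, and GGGCGG can overlap a longer G-rich run. Of all promoters, 35.9% held GGGCGG, 37.4% CCAAT, 11.9% GGCGCC, 13.6% TATAAA, 72.3% CANNTG and 5.29% AACCACA. Of the 4 matched here, Bmp6 also had a GC box, at -93, and E-boxes were found in Bmp4 and Bmp6. These matches are letters only and say nothing of factor binding.

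A subset of the secreted BMP genes was higher in the mandible, and the 3 antagonists were not called in either direction. Bmp1, Bmp3, Bmp4 and Bmp7 changed at least 2-fold with an adjusted p under 0.05 and are said to be called, from edgeR's quasi-likelihood fit with p-values adjusted by the Benjamini-Hochberg method over the whole table. That is 4 of 10, against 3.88% of all tested genes called higher, and 0 of 10 were called lower, against 1.30% of all tested genes. Without adjustment, 6 of the 10 had a p under 0.05, as did 16.4% of all tested genes. The log2 fold change of mandible over femur was above 0 in 9 of 10, with a median of 2.24 beside a median of -0.04 over all tested genes. In 7 of 10 every mandible library lay above every femur library, as in 12.7% of tested genes, and in 1, Chrdl1, every mandible library lay below, as in 11.5%. The 10 genes were chosen with earlier results of these data known, so the comparison with all tested genes is a description only.

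**Figure D1:**
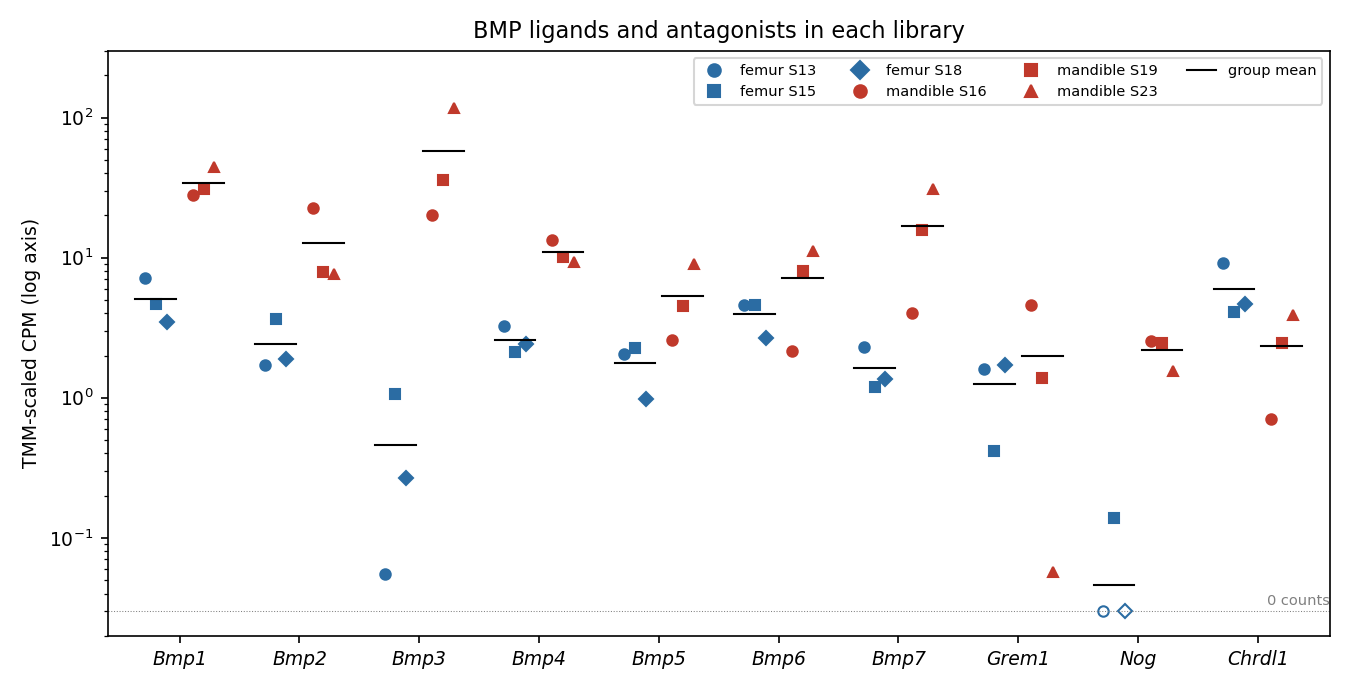
Level of each of the 10 genes by library, in TMM-scaled CPM on a log axis, with a point for each of the 3 femur and 3 mandible libraries and a bar at each group mean (libraries at 0 are drawn on the line marked 0 counts). The points of the groups overlap for Bmp6 and Grem1, and Chrdl1 is the gene whose mandible points all lie under its femur points.

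Genes of several other cell types moved mostly in the same direction as the ligands. The 11 ameloblast and dental epithelium markers summed to 9.81 to 12 CPM in femur and 5841 to 11453 CPM in mandible. Of these, 8 of 11 were called higher, and the share over all tested genes, for this and the lists below, was 3.88%. The most abundant of them, the enamel matrix genes Amelx and Ambn, averaged 4386 and 2612 CPM in mandible and 0.217 and 0.201 CPM in femur, and Odam was at 0 in all 3 femur libraries. All 7 skeletal muscle markers were called higher, with sums of 6.41 to 38.4 CPM in femur and 1258 to 4376 CPM in mandible. Of 14 osteoblast and mesenchymal markers 11 were called higher, with sums of 244 to 372 CPM in femur and 690 to 1187 CPM in mandible. In that list Cxcl12 and Lepr, named after their values were seen, had negative log2 fold changes, -1.42 and -0.44, and were not called. Cxcl12 was the largest part of the femur sum of the list. It was at 190 ± 48.3 CPM in femur and 71.1 ± 44.7 CPM in mandible (SD, n = 3 each), with no overlap. Of 4 tested odontoblast markers 2 were called higher, with sums of 5.58 to 9.14 and 59.3 to 71.0 CPM. Of the mural and smooth muscle markers 3 of 7 were called higher, with sums of 8.22 to 21.2 CPM in femur and 57.2 to 176 CPM in mandible, as were 1 of 4 tested Schwann cell markers and 2 of 4 tested chondrocyte markers, the latter with sums of 2.54 to 11.6 and 53.6 to 121 CPM. The 6 tested endothelial markers gave no call, and their list summed to 50.7 to 70.3 CPM in femur and 39.5 to 64.2 CPM in mandible. For comparison, the 10 BMP genes together summed to 19.4 to 31.9 CPM in femur and 101 to 236 CPM in mandible. The part of these cells in the BMP gene differences was not tested. In bulk RNA, fewer cells of a type and less RNA per cell cannot be told apart.

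**Figure D2:**
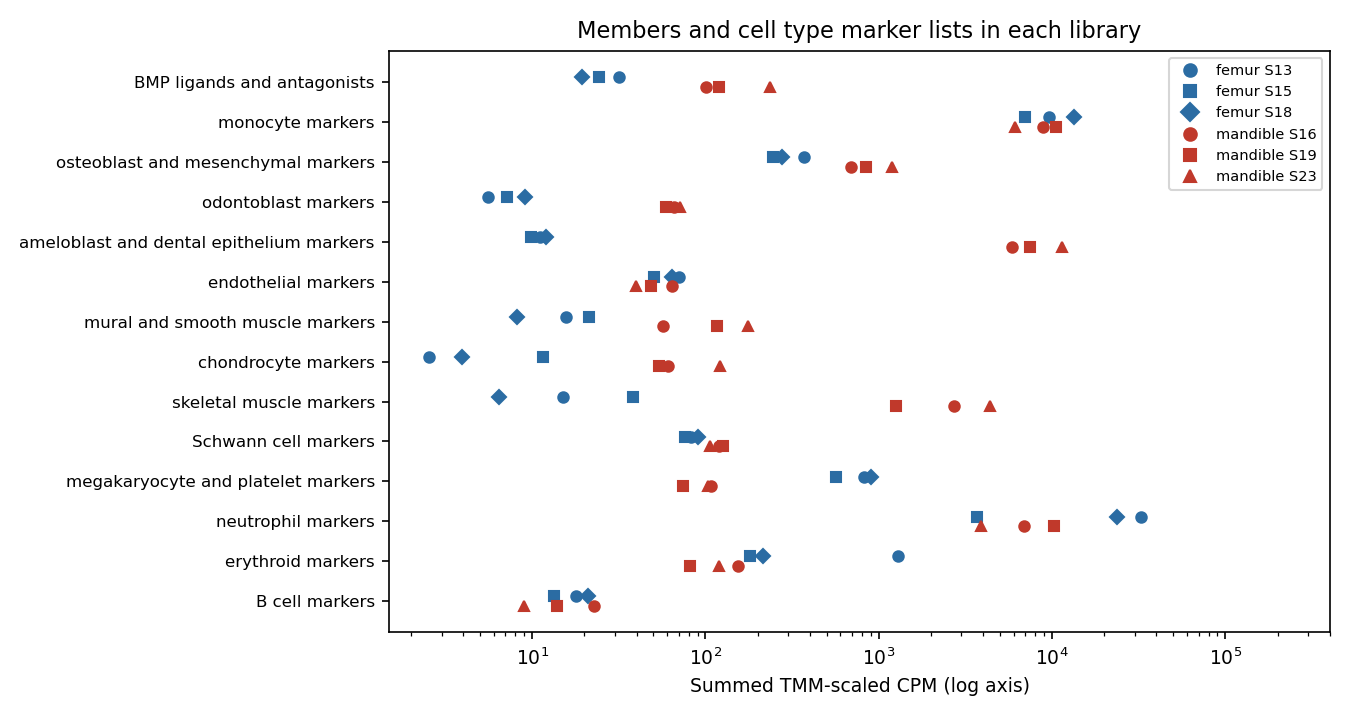
Summed TMM-scaled CPM of each list of cell type markers and of the 10 BMP genes, on a log axis, with a point for each femur and mandible library. The ameloblast and skeletal muscle sums are separated most between the groups, while the femur and mandible points of the monocyte list overlap.

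Markers of other marrow cells were called lower or were not called. Of 7 megakaryocyte and platelet markers 6 were called lower in mandible, with sums of 564 to 904 CPM in femur and 73.7 to 108 CPM in mandible. Of 8 neutrophil markers 1 was called lower, as were 2 of 6 erythroid markers, and the 5 tested B cell markers gave no call. Over all tested genes 1.30% were called lower. No neutrophil or erythroid marker had a log2 fold change above 0. The neutrophil sums overlapped, at 3699 to 32641 CPM in femur and 3902 to 10320 CPM in mandible. The erythroid sums did not, at 180 to 1287 CPM in femur and 81.1 to 154 CPM in mandible. The part of these lists in the difference of Chrdl1, the gene with lower values in every mandible library, was not tested.

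Bmp1, the procollagen C-proteinase, rose with the smallest standard error of the 10 genes. It was at 7.13, 4.65 and 3.45 CPM in femur libraries S13, S15 and S18 and at 28.1, 30.7 and 44.3 CPM in mandible libraries S16, S19 and S23. The lowest mandible library lay well above the highest femur library, and the mean was 5.07 ± 1.88 CPM in femur and 34.4 ± 8.67 CPM in mandible (SD, n = 3 each). Mandible over femur, the log2 fold change was 2.76 (SE 0.40, 95% interval 1.89 to 3.63, a 6.78-fold difference), at a Benjamini-Hochberg adjusted p of 0.00209 (edgeR quasi-likelihood test). It stayed between 2.48 and 3.09 when each library was left out in turn, and Bmp1 was called in all 6 of those fits. It was the only one of the 10 called by limma-voom, with 2.82 and an adjusted p of 0.00233.

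Bmp3 showed the largest fold change among the called genes. Unlike Bmp2 and Bmp4, this ligand, abundant in bone matrix, is known to oppose osteogenic BMP signaling. It had 1, 23 and 6 counts in femur libraries S13, S15 and S18 and 406, 756 and 2060 counts in mandible libraries S16, S19 and S23. In CPM these were 0.0552, 1.06 and 0.265 in femur and 20.3, 35.9 and 117.8 in mandible, so the gene was near or under the limit of 3 counts in S13 and S18 but not in S15, and the mandible libraries differed among themselves. The mean was 0.460 ± 0.530 CPM in femur and 58.0 ± 52.4 CPM in mandible (SD, n = 3 each), with no overlap between the groups. On the log2 scale the difference was 6.93 (SE 0.91, 95% interval 4.92 to 8.93), at a Benjamini-Hochberg adjusted p of 0.00114 (edgeR quasi-likelihood test). Over the pooled counts, 3222 against 30, the ratio scaled for library size was 115 with a 95% interval of 80.1 to 170 for counting error only. Library S15 supplied 23 of the 30 femur counts, and the log2 fold change was 8.33 without it and 5.84 without S23. Bmp3 was called in all 6 fits with a library left out, and it was not called by limma-voom (log2 fold change 7.13, adjusted p 0.0937). In the study's own qRT-PCR of monocytes, Bmp3 showed a trend to higher expression in mandible that was not significant.

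Bmp7, a ligand of kidney, skeleton and tooth development that induces bone when applied ectopically, rose in the mandible, with unequal levels among the mandible libraries. It was at 2.32, 1.2 and 1.37 CPM in S13, S15 and S18 and at 4.0, 15.7 and 30.8 CPM in S16, S19 and S23. S16 lay closest to the femur libraries, although the groups did not overlap. The mean was 1.63 ± 0.604 CPM in femur and 16.8 ± 13.4 CPM in mandible (SD, n = 3 each). The fitted log2 fold change was 3.37 (SE 0.72, 95% interval 1.79 to 4.95, 10.3-fold), at a Benjamini-Hochberg adjusted p of 0.0193 (edgeR quasi-likelihood test). The call was lost without S13, S18, S19 or S23, at adjusted p-values of 0.0508, 0.0863, 0.0879 and 0.129, and the log2 fold change was 2.54 without S23. By limma-voom it was 2.98 with an adjusted p of 0.145. The study's qRT-PCR of monocytes also gave Bmp7 a trend to higher expression in mandible that was not significant.

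Bmp4, a ligand that acts early in tooth formation and in bone, rose by a smaller amount with little spread. It was at 3.26, 2.12 and 2.43 CPM in S13, S15 and S18 and at 13.4, 10.1 and 9.38 CPM in S16, S19 and S23. Every mandible library lay above every femur library, and the mean was 2.60 ± 0.589 CPM in femur and 11.0 ± 2.15 CPM in mandible (SD, n = 3 each). The log2 fold change was 2.07 (SE 0.53, 95% interval 0.92 to 3.23, 4.21-fold), at a Benjamini-Hochberg adjusted p of 0.0447 (edgeR quasi-likelihood test), just inside the threshold. The call was lost whichever library was left out, at adjusted p-values of 0.0772 to 0.188, while the log2 fold change stayed between 1.90 and 2.27. It was also lost by limma-voom (adjusted p 0.0622) and without the filter on low counts (adjusted p 0.0757).

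Bmp2, the ligand closest to Bmp4 in sequence and known for inducing bone, lay just outside the threshold. Its levels were 1.71, 3.64 and 1.90 CPM in S13, S15 and S18 and 22.8, 7.93 and 7.61 CPM in S16, S19 and S23. The groups did not overlap, and S16 held most of the mandible signal. The mean was 2.42 ± 1.06 CPM in femur and 12.8 ± 8.66 CPM in mandible (SD, n = 3 each). Mandible over femur, the log2 fold change was 2.40 (SE 0.63, 95% interval 1.02 to 3.77), at a Benjamini-Hochberg adjusted p of 0.0523 (edgeR quasi-likelihood test). Without S16 it was 1.69 with an adjusted p of 0.25, and without S15 it was 2.77 and Bmp2 was called, at an adjusted p of 0.035. It was also called by DESeq2 (adjusted p 0.00178) and by edgeR's exact test (adjusted p 0.00893).

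Bmp5 and Bmp6 belong with Bmp7 to a subgroup of related ligands, and neither was called. Bmp5 was at 2.04, 2.26 and 0.972 CPM in S13, S15 and S18 and at 2.60, 4.51 and 8.98 CPM in S16, S19 and S23, a mean of 1.76 ± 0.689 CPM in femur and 5.36 ± 3.27 CPM in mandible (SD, n = 3 each). Its groups did not overlap, with S15 and S16 nearest to each other. On the log2 scale the difference was 1.61 (SE 0.80, 95% interval -0.14 to 3.36), at a Benjamini-Hochberg adjusted p of 0.361 (edgeR quasi-likelihood test), and 0.96 without S23. Bmp6, which is also known as a regulator of hepcidin and iron, was at 4.58, 4.56 and 2.65 CPM in S13, S15 and S18 and at 2.15, 8.07 and 11.2 CPM in S16, S19 and S23. Here the groups overlapped, since S16 was lower than any femur library and S19 and S23 were higher than all of them. The log2 fold change of Bmp6 was 0.86 (SE 0.69, 95% interval -0.65 to 2.37), at a Benjamini-Hochberg adjusted p of 0.643 (edgeR quasi-likelihood test), and 0.33 without S23. Permuting the libraries (exact test, two-sided, log2 CPM) gave p = 0.5, and 3 against 3 libraries allow no p below 0.1.

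**Figure D3:**
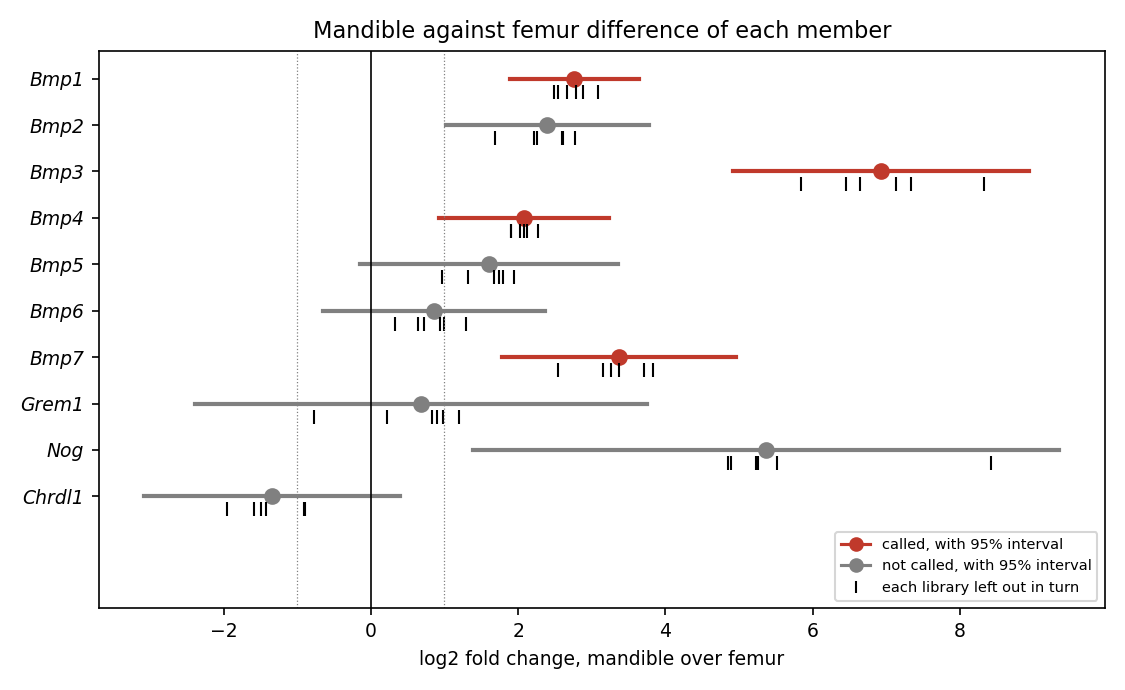
Log2 fold change of mandible over femur for each of the 10 genes, with its 95% interval, from edgeR's quasi-likelihood fit, and ticks below for the fits that leave out each library in turn. Bmp1, Bmp3, Bmp4 and Bmp7 are drawn as called, and the intervals of Bmp5, Bmp6, Grem1 and Chrdl1 cross 0.

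The 3 antagonists showed no common direction, and none of them was called. Nog encodes noggin, which wraps around BMP dimers and covers their receptor sites. It had 0, 3 and 0 counts in femur libraries S13, S15 and S18 and 51, 52 and 27 counts in mandible libraries S16, S19 and S23, or 2.55, 2.47 and 1.54 CPM in mandible. Every mandible library lay above every femur library, and all femur counts came from S15. The counts were 130 against 3 in all, a ratio scaled for library size of 46.2 with a 95% interval of 15.5 to 227 for counting error only. Nog was not called, at a Benjamini-Hochberg adjusted p of 0.138 (edgeR quasi-likelihood test), whereas DESeq2 (adjusted p 0.00319) and edgeR's exact test (adjusted p 0.0316) called it. Without S15 the femur group is at 0 and a fitted fold change is no longer a measure of size.

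Chrdl1, which encodes chordin-like 1, a binder of BMP4 and related ligands, had lower values in every mandible library than in any femur library. It was at 9.17, 4.10 and 4.64 CPM in S13, S15 and S18 and at 0.701, 2.47 and 3.89 CPM in S16, S19 and S23. S15 and S23 lay next to each other with no overlap, and the mean was 5.97 ± 2.78 CPM in femur and 2.35 ± 1.60 CPM in mandible (SD, n = 3 each). The fitted log2 fold change was -1.34 (SE 0.79, 95% interval -3.07 to 0.39), at a Benjamini-Hochberg adjusted p of 0.471 (edgeR quasi-likelihood test). It stayed below 0 in all 6 fits with a library left out, between -1.96 and -0.89, and was called in none of them.

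Grem1, or gremlin 1, an antagonist of BMP2, BMP4 and BMP7, varied more within the mandible than between the groups. It was at 1.60, 0.415 and 1.72 CPM in S13, S15 and S18 and at 4.55, 1.38 and 0.0572 CPM in S16, S19 and S23, the last from 1 count. The mandible libraries spanned a 79.6-fold range that covered all femur libraries. The log2 fold change was 0.68 (SE 1.40, 95% interval -2.39 to 3.74), at a Benjamini-Hochberg adjusted p of 0.899 (edgeR quasi-likelihood test). It was -0.78 without S16 and -0.25 by limma-voom, and the exact permutation test (two-sided) gave p = 0.8. At this depth and spread no direction can be given for Grem1, and the interval includes differences larger than those of Bmp1 and Bmp4.

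To compare levels between genes, CPM was divided by gene length and is given per 1000 bases. In femur the order of mean levels per 1000 bases was Bmp4 (1.16 ± 0.262), Bmp6, Chrdl1, Bmp2, Bmp1, Bmp5, Bmp7, Grem1, Bmp3 and Nog (0.0272 ± 0.0471). In mandible it was Bmp3 (7.84 ± 7.08), Bmp4 (4.88 ± 0.955), Bmp7 (4.19 ± 3.35), Bmp1, Bmp2, Bmp6, Bmp5, Nog, Grem1 and Chrdl1 (0.348 ± 0.236), each as mean ± SD of 3 libraries. Bmp3 thus stood ninth in femur and first in mandible, and Chrdl1 moved from 3 to 10. In both groups the library values of every pair of neighbours in the order overlapped, so adjacent ranks do not differ beyond their spread.

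Summed over Bmp2 to Bmp7, the ligand level per 1000 bases was 4.20, 4.14 and 2.91 CPM in S13, S15 and S18 and 17.3, 18.7 and 35.0 CPM in S16, S19 and S23. The same sum over the 3 antagonists was 1.74, 0.788 and 1.1 in femur and 2.71, 2.15 and 1.5 in mandible. The ligand sums of the groups were well apart, while the sums of these 3 antagonists overlapped. This holds for Grem1, Nog and Chrdl1 and not for every BMP antagonist, since Nbl1, which is outside the sum, was by itself at 0.0815, 0.181 and 0.0435 CPM per 1000 bases in femur and at 11.2, 16.6 and 25.2 in mandible. The ratio of the 6 ligands to these 3 antagonists was 2.41, 5.25 and 2.64 in S13, S15 and S18 and 6.39, 8.67 and 23.3 in S16, S19 and S23, so the groups did not overlap, with S15 and S16 close to each other. The ratio leaves out Nbl1, which was above the sum of these 3 in every mandible library and below it in every femur library. It also counts Bmp3, which is known to oppose osteogenic BMP signaling, among the ligands. The direction of the ratio therefore holds for these genes only and depends on which antagonists are counted. These sums describe RNA of the whole fraction and not protein.

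**Figure D4:**
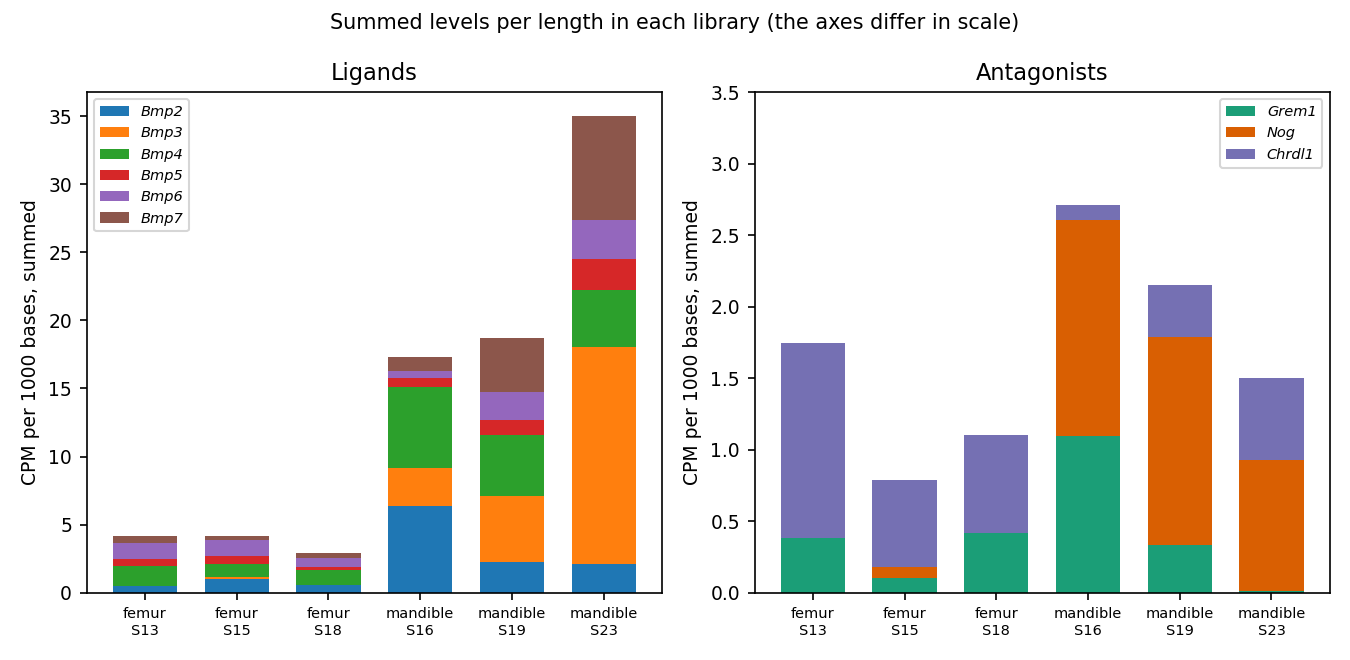
Stacked bars of CPM per 1000 bases of gene length for the 6 ligands and for the 3 antagonists, in each femur and mandible library. The ligand bars are taller in all 3 mandible libraries, and Chrdl1 takes the largest part of the antagonist bar in femur and Nog in mandible.

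The composition of the sums also differed between the groups. Bmp3 made up 0.178, 3.46 and 1.23% of the ligand sum in S13, S15 and S18 and 15.9, 26.0 and 45.5% in S16, S19 and S23. Bmp6 took 28.0, 28.3 and 23.3% in femur and 3.19, 11.1 and 8.21% in mandible. Neither of these shares overlapped between the groups, nor did that of Bmp5, at 8.29 to 13.6% in femur and 3.73 to 6.37% in mandible, whereas those of Bmp2, Bmp4 and Bmp7 did. A lower share is not a lower level here, since the mean level per 1000 bases was 1.01 in femur and 1.83 in mandible for Bmp6 and 0.437 and 1.33 for Bmp5. The most abundant ligand per length was Bmp4 in S13 and S18, Bmp6 in S15, Bmp2 in S16 and Bmp3 in S19 and S23. Chrdl1 led the antagonists in all 3 femur libraries and Nog in all 3 mandible libraries.

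Within the mandible the 10 genes fell into a pair of opposite orders of libraries. Bmp1, Bmp3, Bmp5, Bmp6, Bmp7 and Chrdl1 were lowest in S16 and highest in S23, an order shared by 26.6% of all tested genes. Bmp2, Bmp4, Grem1 and Nog were highest in S16 and lowest in S23, as were 21.7% of tested genes. Both orders were thus common over the whole table. The sums of the osteoblast and mesenchymal markers, the ameloblast markers and the mural markers also rose from S16 over S19 to S23. They were 690, 843 and 1187 CPM, 5841, 7428 and 11453 CPM and 57.2, 116 and 176 CPM. The endothelial and B cell sums fell from S16 over S19 to S23, with 64.2, 48.4 and 39.5 CPM and 22.8, 13.9 and 8.98 CPM. The other marker lists followed neither order, and the part of any list in these orders was not tested.

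The genes most alike to each of the 10 in log2 CPM were found over all 6 libraries among 16135 genes, as a description in which group, depth and library are shared by every point. Bmp3 was closest to Itgb5, Fat4 and 2510009E07Rik (Pearson r 0.998, 0.998 and 0.996, n = 6 libraries), and 621 genes reached an r over 0.95 with it. For Bmp1 the closest were Zfp521, Mxra8 and Nfib, with 370 genes over 0.95, and for Nog Fut10, Fmod and Ccl21a, with 319. Bmp7 was closest to Adgra3, Kank2 and Frmd6, Bmp4 to Cdk13, Nfe2l1 and Slc30a4, Bmp2 to Xylt1, Bahd1 and Kat6a, and Bmp5 to Gpr4, Epas1 and Wdr35. Bmp6 was closest to Nectin2, Ogdhl and Tsen34, Grem1 to Cnot11, Smarca5-ps and Pccb, and Chrdl1 to ENSMUSG00000120757, Atp5g2 and Atp5md. Bmp6 had the fewest genes over 0.95, with 40.

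Beyond the 10 genes, 79 others of the BMP pathway were listed by role, of which 62 were tested. Of these 21 were called higher in mandible and 0 lower, beside 3.88% and 1.30% of all tested genes, and 57 of 62 had a log2 fold change above 0, with a median of 2.16. Several of these genes, such as Sp7, Dmp1 and the collagens, are also markers or matrix products of osteoblasts and odontoblasts, whose marker sums given above were higher in mandible. Of the 21 calls 16 held in all 6 fits with a library left out. The others were Bambi, Bmpr2, Runx2, Dspp and Sp7. As the lists too were chosen with earlier results of these data known, the shares beside all tested genes are a description only.

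Among other BMP-type ligands, 7 of 16 were tested and none was called (edgeR quasi-likelihood test), with 1 at an unadjusted p under 0.05, a share near the 16.4% of all tested genes. Inhba, the activin A subunit, was the most abundant per length at 30.0 ± 21 CPM in femur and 26.3 ± 11.6 CPM in mandible, and Gdf3 was at 1.82 ± 1.86 and 2.67 ± 0.586 CPM (SD, n = 3 each). Gdf10, named after its values were seen as the ligand with that p, was at 0.465 ± 0.414 CPM in femur and 6.62 ± 3.61 CPM in mandible, with every mandible library above every femur library and an adjusted p of 0.101 (edgeR, Benjamini-Hochberg).

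Other extracellular modulators were called higher in 4 of 13 tested, beside 3.88% of all tested genes, with a median log2 fold change of 3.34. Nbl1, a DAN-family antagonist like Grem1, went from 0.208 ± 0.145 CPM in femur to 35.9 ± 14.3 CPM in mandible (SD, n = 3 each), the follistatin-like gene Fstl1 from 11.5 ± 3.12 to 212 ± 118 CPM and Smoc2, a matricellular BMP modulator, from 1.24 ± 1.49 to 56.1 ± 26.9 CPM. Of the antagonist genes named here, Nbl1 was therefore called, and Grem1, Nog and Chrdl1 were not.

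Of 11 tested receptors and coreceptors 3 were called higher, beside 3.88% of all tested genes, with a median log2 fold change of 1.17. Bmpr2, the type II receptor, was at 47.8 ± 11.7 CPM in femur and 101 ± 15.3 CPM in mandible (SD, n = 3 each), with a log2 fold change of 1.08 and an adjusted p of 0.0447 (edgeR, Benjamini-Hochberg), and its call was lost without S13, S18, S16, S19 or S23, without normalization factors and with a filter at a mean CPM of 1. With the correction for gene length the log2 fold change of Bmpr2 was 0.28, with an adjusted p of 0.743. Bambi, a pseudoreceptor that dampens the signal, was at 7.28 ± 1.56 and 30.4 ± 16.3 CPM, and lost its call without S13, S18, S19 or S23. The coreceptor gene Hjv had 0, 2 and 0 counts in femur and 256, 177 and 204 counts in mandible. Acvrl1, the most abundant receptor of the list per length, was at 18.2 ± 3.24 and 25.6 ± 9.34 CPM and was not called. None of 8 SMAD and SMURF genes was called by edgeR's quasi-likelihood test, with 3 at an unadjusted p under 0.05 beside 16.4% of all tested genes, and Smad4, the common partner of the receptor-activated SMADs, was at 52.8 ± 12.1 and 67.7 ± 4.91 CPM and the ubiquitin ligase gene Smurf2 at 39.6 ± 2.82 and 44.1 ± 10.4 CPM.

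**Figure D5:**
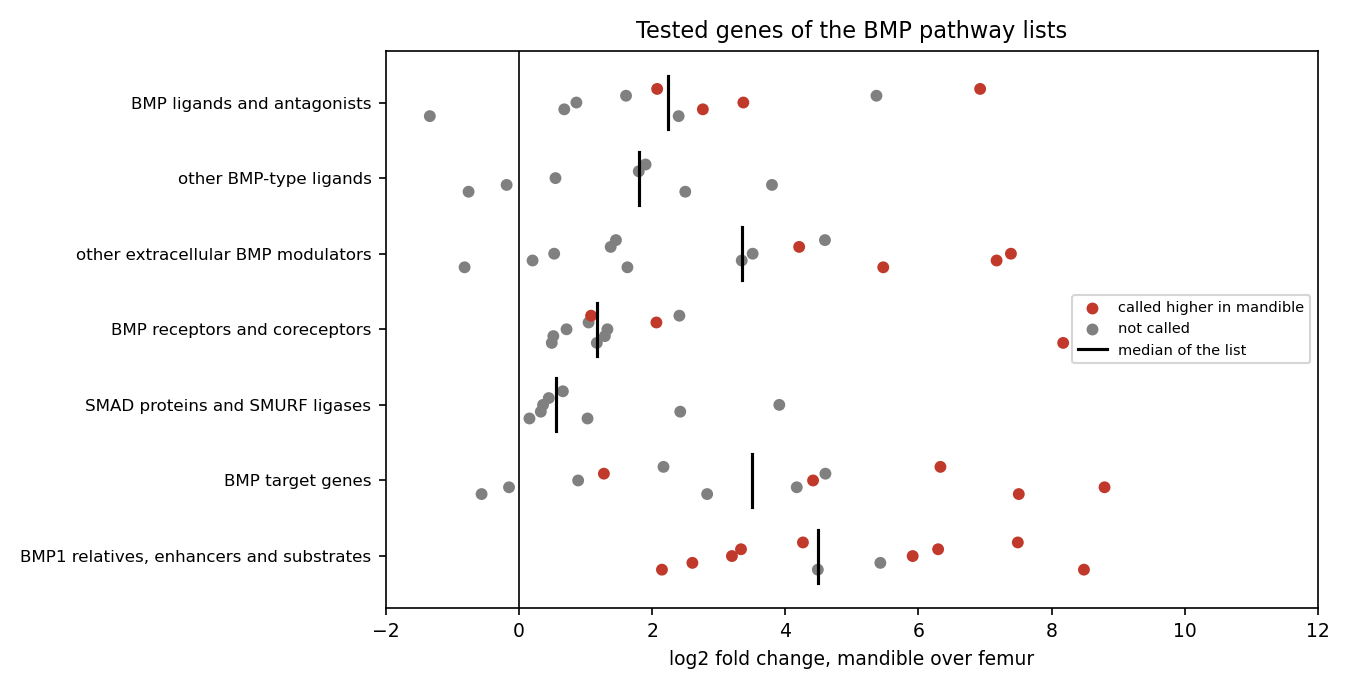
Log2 fold change of mandible over femur for every tested gene of the 7 lists, the 10 BMP genes and 6 further roles in the pathway, with a point per gene, called genes in red and a bar at each list's median. The SMAD and SMURF list holds no called gene, and the list of Bmp1 relatives, enhancers and substrates holds the most.

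Genes known as BMP targets were called higher in 5 of 12, beside 3.88% of all tested genes, with a median log2 fold change of 3.5. The homeobox genes Msx1, Dlx3 and Dlx5, which pattern jaw and teeth, averaged 9.83, 21.3 and 11.8 CPM in mandible and 0.0154, 0.108 and 0.136 CPM in femur, where Msx1 had 0, 1 and 0 counts. The osteoblast regulators Runx2 and Sp7 were at 36.1 ± 6.01 and 0.502 ± 0.364 CPM in femur and at 87.4 ± 19.5 and 10.8 ± 1.19 CPM in mandible (SD, n = 3 each). The call of Runx2 was lost without S13, S19 or S23 and with the correction for gene length (log2 fold change 0.71, adjusted p 0.299), that of Sp7 without S19 and that of Dlx5 by limma-voom (adjusted p 0.107). The direct SMAD targets Id1 and Id2, the most abundant of the list per length, were not called, nor were Id3 and Id4, which are named after their values were seen. Id1 was at 14.0 ± 3.22 CPM in femur and 12.6 ± 5.09 CPM in mandible, with a log2 fold change of -0.15 (SE 0.43) and an adjusted p of 0.932 (edgeR, Benjamini-Hochberg), and Id2 at 50.4 ± 13 and 34.1 ± 8.65 CPM, with -0.56 (SE 0.30) and an adjusted p of 0.412 (edgeR, Benjamini-Hochberg). The groups overlapped for Id1, whereas for Id2 every mandible library lay below every femur library. Id3 and Id4 had higher values in every mandible library than in any femur library, at 1.11 ± 0.150 and 1.07 ± 0.368 CPM in femur and 7.92 ± 4.96 and 4.82 ± 1.19 CPM in mandible (SD, n = 3 each), with adjusted p-values of 0.0663 and 0.197 (edgeR, Benjamini-Hochberg).

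The list around Bmp1, its relatives, enhancers and substrates, had 9 of 11 tested genes called higher, beside 3.88% of all tested genes. Its median log2 fold change was 4.49. Pcolce, which enhances procollagen cleavage by BMP1, was at 3.6 ± 1.47 CPM in femur and 33.0 ± 1.52 CPM in mandible (SD, n = 3 each), a log2 fold change of 3.20 (SE 0.41) beside 2.76 for Bmp1, at a Benjamini-Hochberg adjusted p of 0.00101 (edgeR quasi-likelihood test). The procollagen substrates Col1a1, Col1a2, Col3a1 and Col5a1 had log2 fold changes of 7.49, 5.91, 8.49 and 4.26, all larger than that of the protease. Lox, which crosslinks collagen and is activated by BMP1, went from 3.31 ± 1.21 to 20.2 ± 3.64 CPM, and the proteoglycan Bgn from 16.7 ± 1.93 to 74.1 ± 9.29 CPM. Of the mineralized tissue substrates, Dmp1 went from 2.75 ± 1.37 to 27.8 ± 18.5 CPM, and the dentin gene Dspp had 0, 15 and 0 counts in femur and 477, 573 and 101 counts in mandible, with its call lost without S19 and by limma-voom.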

How the data were processed

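Monocyte RNA from 3 femur and 3 mandible preparations was sequenced in 2 × 50 bp paired-end mode. The authors deposited raw counts of reads per gene, made per the paper's methods and the submitters' processing notes with Trimmomatic, HISAT2 2.1.0 (genome named GRCm38) and featureCounts, whose version and settings for strand and multi-mapping reads are not given in the sources used here. Gene intervals in the table lay inside the GENCODE M21 gene for 2979 of 52029 shared identifiers and for 0 of the 10 genes. The positions given here therefore come from M21 by identifier and are not the table's intervals, whose build was not determined. The lengths in the table equal the M21 exonic bases of all 10 genes.

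Tests used edgeR 4.0.16 under R 4.3.3. Low genes were removed by filterByExpr (minimum count 10, minimum total 15), libraries were scaled by TMM, and the quasi-likelihood test had no covariates and a prior count of 0.125. The Benjamini-Hochberg adjustment ran over 18114 genes, and a gene was called at an adjusted p under 0.05 if it changed at least 2-fold. Standard errors are the log2 fold change over the square root of F, and intervals use the fit's degrees of freedom. Alternatives used DESeq2 1.42.0 (without the filter on low counts), limma 3.58.1, other scalings, filters and thresholds, a loess correction for gene length, and each library left out. The fits were tested on simulated data with the same spread for every gene. That spread was lower than the fitted spread of each BMP gene here, so the check does not cover these genes. Figures were drawn with matplotlib 3.10.9.

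Named genes were the 10 members, every called gene and up to 2 of the highest level per length in each pathway list, the 3 genes most alike to each member with a mean CPM of at least 1, the 2 most abundant markers or those at 0 where a marker list is described, and Xist. An item that meets this rule is not reported here. The members and lists were chosen with earlier results of these data known.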

Additional observations from a re-analysis of the deposited data

How the results depend on the processing

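Of the 10 genes, 4 were called, and 1 was called by limma-voom, 2 at an adjusted p under 0.01, 6 by DESeq2, 6 by edgeR's exact test and 2 to 4 with each library left out. Bmp1 was called under all 19 alternatives and Bmp3 under all but limma-voom. Of the other 79 pathway genes, 21 were called, and 35 by DESeq2. Over all genes 938 were called, against 1758 by DESeq2, 1468 by edgeR's exact test, 1590 without the filter, 445 at an adjusted p under 0.01 and 434 (without S19) to 1565 (without S15) with each library left out. Grem1 changed direction by limma-voom (-0.25) and without S16 (-0.78), with 1.19 without S23, and the other 9 genes kept their direction under all alternatives. The median log2 fold change over all genes moved from -0.04 to -0.84 with DESeq2, to -1.09 without the filter and to -0.18 with the length correction, under which Bmp2 was also called (adjusted p 0.0479). DESeq2 was run without the filter on low counts, on 42225 genes with any count, as was the unfiltered edgeR fit, beside 18114 in the main fit. The DESeq2 result therefore differs from the main one in gene set as well as in test. The cause of these changes was not tested. No paired analysis was possible because the labels do not give the animal of each library. If femur and mandible libraries came from the same mice, the tests left that pairing out. Depth limits Nog, Bmp3 and Grem1, which had 3, 30 and 77 counts over the femur libraries.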
